A study of Mus musculus with 6 samples.

Results

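The miR-21 family of the mouse was measured here as 4 mature miRNAs: the 2 arms of the miR-21a hairpin, miR-21a-5p and miR-21a-3p, and the near-identical miR-21b and miR-21c. They were taken by name from a table of 1907 distinct mature miRNAs, and all 4 were found. Small RNA was sequenced from the whole liver of C57BL/6N mice, 3 females and 3 males, 1 library each. All animals were 12 weeks old, healthy, untreated littermates on a chow diet, so that sex was the only labelled difference. The study is about SAB, a protein of the outer mitochondrial membrane, and the severity of acute liver injury in the sexes. These libraries address which miRNAs already differ between healthy females and males.

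A miRNA hairpin is cut by Drosha and Dicer into a short duplex. Usually a single strand of the duplex, the guide, stays in an Argonaute protein and represses mRNAs that pair with its seed, bases 2 to 8, while the other strand is degraded. miR-21 is a guide of this kind from the 5p arm. It is induced by STAT3 and AP-1, its processing is promoted by SMAD proteins, it represses Pdcd4, and it is known to rise in liver regeneration, fibrosis and tumours.

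The mature sequences are shown because the seed decides which mRNAs each member can pair with, and because altered reads of near-identical members may be hard to tell apart. They are RefSeq sequences of the GRCm38.p6 build, matched by name and position, with the seed in capitals.

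miR-21a-5p: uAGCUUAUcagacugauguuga

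miR-21a-3p: cAACAGCAgucgaugggcuguc

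miR-21b: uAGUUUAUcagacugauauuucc

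miR-21c: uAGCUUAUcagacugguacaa

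The members fell into 3 seeds: miR-21a-5p and miR-21c share one, miR-21b has another, and the 3p arm a different one again. No further miRNA among the 1623 of the table with a RefSeq sequence matched by name carried any of the 3 seeds. The rest of the 1907 miRNAs were not searched, so others that share a seed may exist among them. Counted from 1 at the 5′ end, and given as the base of miR-21a-5p, its position and the base of the other member, miR-21b differed by C4U, G18A, G21U and A22C, and is 1 base longer. C4U lies inside the seed. miR-21c differed by A16G, G18A, U19C, U20A and G21A, and is 1 base shorter, so its first 15 bases are those of miR-21a-5p. The longest run that miR-21b shares with miR-21a-5p is 13 bases, from position 5 to 17. The letters CAGAC, the core of the element by which SMAD proteins are known to recognise the miR-21 hairpin, lay at positions 9 to 13 of miR-21a-5p, miR-21b and miR-21c. They were found in 26 of the 1623 mature sequences (1.6%) on the miRNA strand, and in 80 of 1005 RefSeq hairpins (7.96%).

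The family comes from 3 loci. Both arms of miR-21a lie on the minus strand of chromosome 11, the 5p arm from 86584120 to 86584141 and the 3p arm from 86584082 to 86584103. This stretch is also the 3′ UTR in the last exon of Vmp1, which encodes a membrane protein of the endoplasmic reticulum needed for autophagy. miR-21b lies on the plus strand of chromosome 3, from 29636768 to 29636790, in an intron of Egfem1. miR-21c lies on the minus strand of chromosome 8, from 128278188 to 128278208, with no other annotated gene there (mm10, GENCODE M21).

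Library totals ranged from 3285249 to 16444675 counts, and 830 to 1287 miRNAs had a count in a library. The deepest library was male replicate 3. The hepatocyte miRNA miR-122-5p was the most abundant miRNA, as the label of liver requires. Of the 370 miRNAs with enough counts to be tested, 25 differed between the sexes (6.76%), 12 higher and 13 lower in females, by edgeR's quasi-likelihood test at an adjusted p under 0.05. Other scalings shifted this split: without TMM adjustment 13 of 20 called miRNAs were the higher ones in females, and upper-quartile scaling gave 7 of 26. Leaving out a library moved the count as well, to 12 without male replicate 3, 9 without female replicate 2 and 10 without female replicate 3. Without female replicate 1 there were 32, of which 23 were higher in females. All 4 members were among the 370.

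miR-21a-5p, the guide strand, was lower in females in every library. Levels are given in CPM, counts in a library scaled to 1000000, after TMM adjustment. It stood at 58370, 70714 and 60668 CPM in female replicates 1, 2 and 3, and at 97626, 103253 and 86393 CPM in the male replicates. Each female library lay below each male library, and the 2 nearest, female replicate 2 and male replicate 3, were well apart. Females averaged 63251 ± 6565 CPM and males 95757 ± 8584 CPM (SD, n = 3 per sex), which is 1.51 times the female level. On the log2 scale, the fold change of females over males was -0.60 (SE 0.09, 95% interval -0.79 to -0.40), with a Benjamini-Hochberg adjusted p = 0.00169 in edgeR. In whole liver, fewer cells of a type that holds this miRNA and less miRNA per cell cannot be told apart.

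As a plain share of the deposited counts, without TMM scaling, miR-21a-5p took 6.14, 7.28 and 6.48% of the female libraries and 9.60, 9.47 and 8.27% of the male libraries. The mean was 6.63 ± 0.589% against 9.11 ± 0.732% (SD, n = 3 each). It ranked 2 in 5 libraries and 3 in female replicate 1, where let-7f-5p lay above it. A ratio of counts within a library needs no scaling at all. The ratio of miR-21a-5p to miR-122-5p was 0.185 to 0.224 in females and 0.239 to 0.284 in males. Set against each of the 9 other miRNAs among the 10 most abundant, the ratio was lower in every female library than in every male library for 8. The exception was miR-148a-3p, with 2.20 to 2.94 in females and 2.47 to 4.02 in males. These 9 ratios share their numerator.

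**Figure D1:**
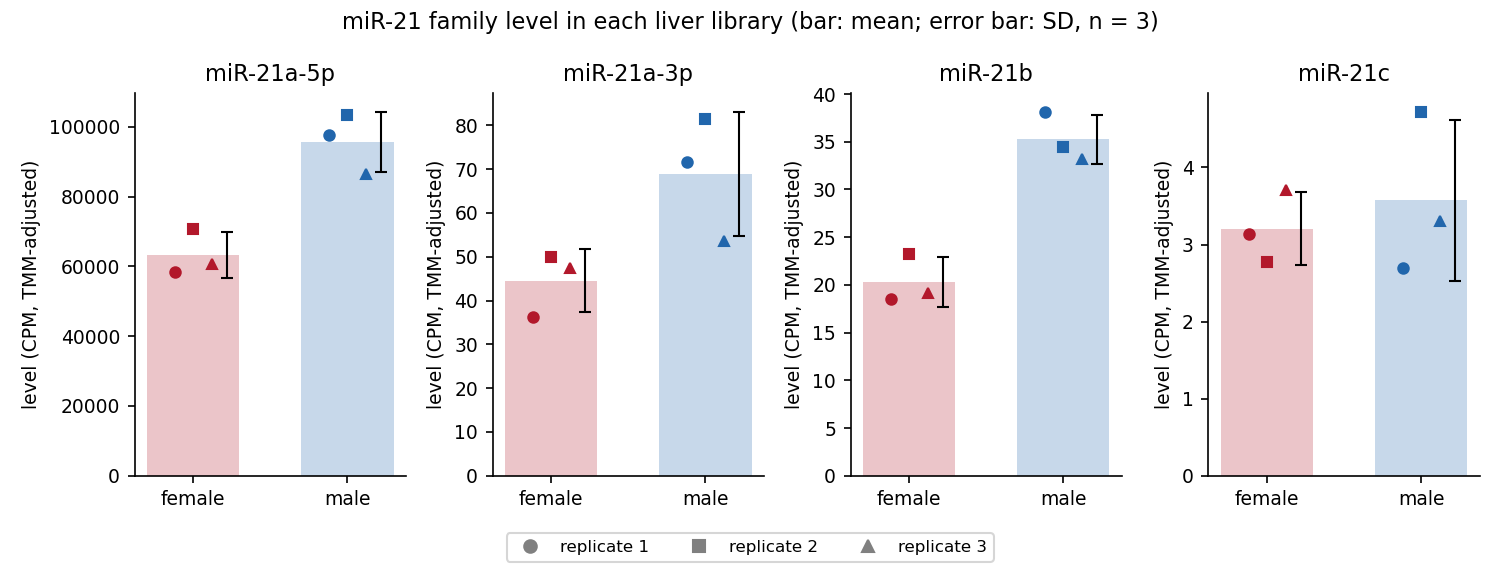
Level of each member of the miR-21 family in CPM (TMM-adjusted, linear axes from 0, a separate scale per panel) in 3 female and 3 male liver libraries; points are libraries, bars the mean and error bars the SD. The female and male points of miR-21a-5p, miR-21a-3p and miR-21b do not overlap, while those of miR-21c do.

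miR-21a-3p, the strand that is mostly degraded, was present at a far lower level. It stood at 36.3, 49.8 and 47.3 CPM in the female replicates and at 71.7, 81.5 and 53.5 CPM in the male replicates. The groups did not overlap, but male replicate 3 lay close to female replicate 2. The counting intervals of these 2 libraries, 49.9 to 57.2 CPM (male) and 42.8 to 57.7 CPM (female; exact Poisson, 95%), overlapped. The means were 44.5 ± 7.18 and 68.9 ± 14.2 CPM (SD, n = 3 each). Its log2 fold change was -0.63 (SE 0.22, 95% interval -1.11 to -0.15), which did not pass over all tested miRNAs (adjusted p = 0.132, edgeR). The DESeq2 Wald test put it just past the threshold (adjusted p = 0.0475).

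The balance of the 2 arms differed between the sexes by less than the spread between libraries. There were 1606, 1419 and 1282 counts of the 5p arm per count of the 3p arm in the female libraries, and 1361, 1267 and 1615 in the male libraries. The means were 1436 ± 163 and 1415 ± 180 (SD, n = 3 each). The log2 ratio of 3p over 5p counts differed by -0.02 between females and males (SE 0.18; adjusted p = 0.97, limma over the 92 hairpins with both arms tested). Its 95% interval ran from -0.40 to 0.36, so differences smaller than these limits were not resolved. Of the 92 hairpins none passed this test (0%), and 4 had an unadjusted p under 0.05 (4.35%); edgeR's diffSpliceDGE test also called 0.

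Among the 92 hairpins, that of miR-21a was one of the most one-sided. The lesser arm held 0.0706% of its counts, against a median of 4.62% over the hairpins. It ranked 6 in order of asymmetry, between miR-148a (0.0551%, mostly 3p) and miR-125a (0.0918%, mostly 5p). Both arms had to pass the filter on counts, so a lesser arm this small could be seen only where the dominant arm was abundant. The rank and the contrast with the median therefore depend on level too. The 5p arm was the more abundant one in 49 of the 92. Neither neighbour's balance passed the test of a sex difference (adjusted p = 0.877 for both, limma).

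**Figure D2:**
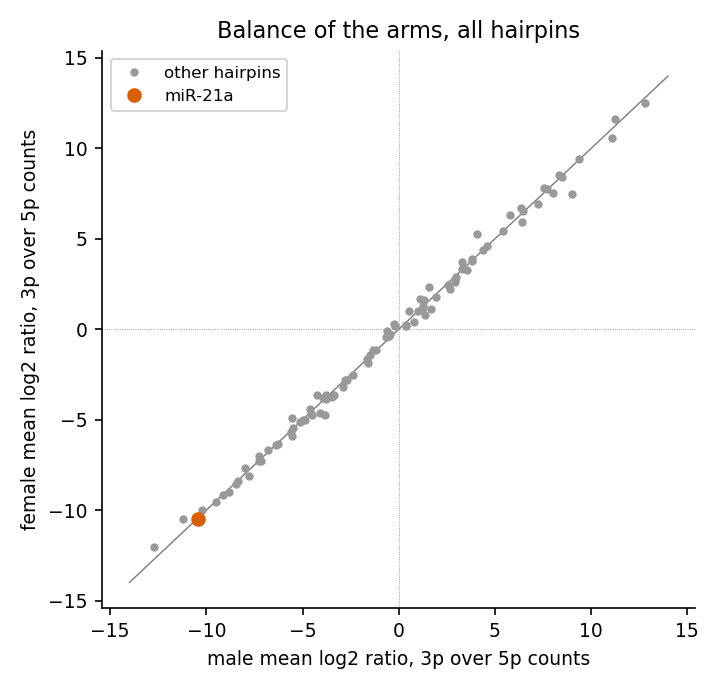
Mean log2 ratio of 3p over 5p counts in males (horizontal axis) and females (vertical axis) for 92 hairpins with both arms tested; the diagonal marks equal ratios. The miR-21a hairpin, at about -10.5 in both sexes, lies near the 5p end and on the diagonal.

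miR-21b, whose seed differs from that of the guide, was lower in females by a similar amount. It stood at 18.5, 23.3 and 19.1 CPM in the female replicates and at 38.1, 34.5 and 33.2 CPM in the male replicates. Every female library lay below every male library. The means were 20.3 ± 2.59 and 35.3 ± 2.59 CPM (SD, n = 3 each). On the log2 scale the fold change was -0.80 (SE 0.20, 95% interval -1.24 to -0.36; adjusted p = 0.0438, edgeR). This call lay near the threshold: the adjusted p was 0.0794 with no TMM factor and 0.0619 with no filter. It was 0.0757 without male replicate 1 and 0.0933 without male replicate 3. Without female replicates 1, 2 and 3 it was 0.0742, 0.083 and 0.189.

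miR-21c, which has the seed of the guide, stood near the lower end of what the libraries can measure. It had 19, 10 and 13 counts in the female libraries and 17, 20 and 52 in the male libraries. These gave 3.14, 2.77 and 3.71 CPM in females and 2.69, 4.72 and 3.30 CPM in males. The lowest library and the highest one were both male. The fold change on the log2 scale was -0.12 (SE 0.33), with an adjusted p = 0.894 in edgeR. Its 95% interval, from -0.83 to 0.59, includes the value of miR-21a-5p, so a fall of that size is not excluded for miR-21c. With 42 counts in all females and 89 in all males, the male to female ratio of summed counts was 1.06 (95% exact counting interval 0.728 to 1.57).

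Of the 4 members, 4 had a negative log2 fold change, as did 51.9% of all tested miRNAs. In 3 the sexes did not overlap with females lower (11.1% of all tested), and 2 passed the threshold as lower in females (3.51%). The median log2 fold change was -0.61 over the members and -0.01 over all tested miRNAs. The members are not independent measurements: the arms come from the same transcript, and miR-21b and miR-21c can take up altered reads of the guide. An exact two-sided permutation test on CPM gave p = 0.1 for miR-21a-5p, miR-21a-3p and miR-21b and 0.7 for miR-21c, and 0.1 is the smallest p that 3 libraries against 3 allow.

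**Figure D3:**
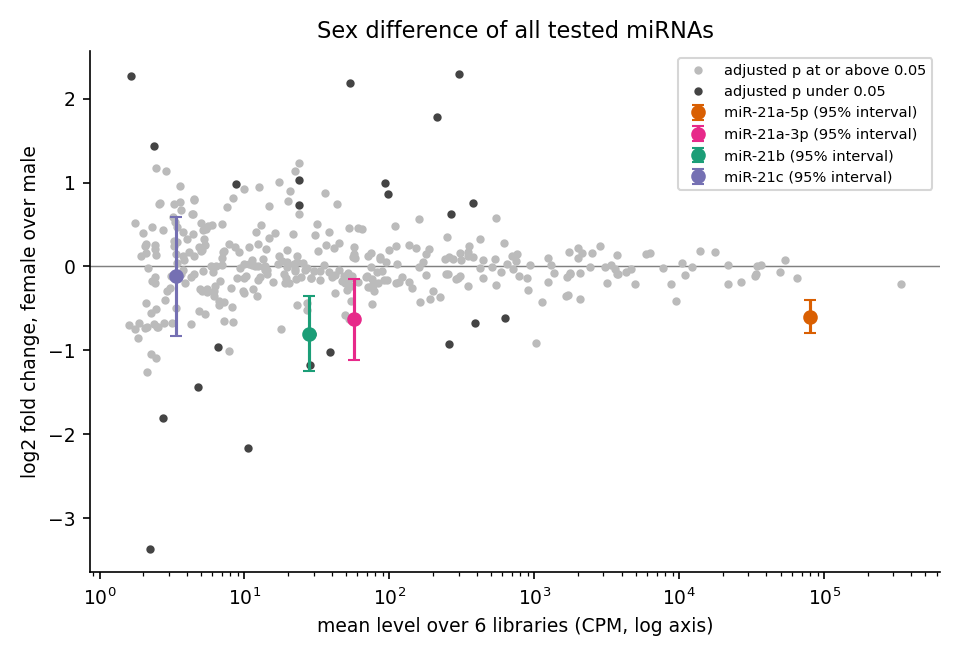
Log2 fold change, female over male, against mean level in CPM (log axis) for 370 tested miRNAs; dark points passed the adjusted threshold, and coloured points are the 4 members with 95% intervals. The intervals of miR-21a-5p, miR-21a-3p and miR-21b lie below 0, and that of miR-21c spans it.

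The order of the levels was the same in all 6 libraries: miR-21a-5p, then miR-21a-3p, miR-21b and miR-21c. Each read covers a whole mature miRNA, so the levels need no length scaling. miR-21a-5p exceeded its 3p arm by 1267 to 1615 times, the 3p arm exceeded miR-21b by 1.61 to 2.48 times, and miR-21b exceeded miR-21c by 5.15 to 14.2 times. Over all tested miRNAs the members ranked 2, 143, 182 and 319 by mean CPM. The miRNAs next to the lower 3 members did not differ from them in level beyond their spread. For miR-21a-3p, at 56.7 ± 16.7 CPM over all 6 libraries (SD), these were miR-144-3p (56.9 ± 20.7 CPM) and miR-101c (55.8 ± 11.7 CPM). The miRNAs next to miR-21b were miR-1903 and miR-744-5p, and those next to miR-21c were miR-450b-3p and miR-93-3p. Of these, miR-1903 was itself called lower in females (log2 fold change -1.17, adjusted p = 0.0193, edgeR). The others did not pass, miR-744-5p among them (-0.44, adjusted p = 0.32, edgeR).

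Counts of miR-21b followed those of the guide closely. Per 100000 counts of miR-21a-5p, miR-21b and miR-21c together, miR-21b took 31.7, 32.9 and 31.5 in the female libraries and 39.1, 33.4 and 38.4 in the male libraries. Male replicate 2 lay next to the females, although the groups did not overlap. The means were 32.0 ± 0.753 and 36.9 ± 3.10 per 100000 (SD, n = 3 each), a difference of -4.93 (exact two-sided permutation p = 0.1, adjusted p = 0.3 over 3 such shares). miR-21c took 3.91 to 6.11 per 100000 in females and 2.76 to 4.57 in males, which overlapped (exact permutation p = 0.2, adjusted p = 0.3). The spread of the 6 shares against counting error alone, as chi-square per degree of freedom, was 1.64 for miR-21b and 1.36 for miR-21c. For the 3p arm, taken per 100000 counts of the 5p arm, it was 4.55, with 62.3 to 78.0 in females and 61.9 to 78.9 in males. The sources used here do not say where reads that match several members were counted, and the part of such reads in the levels of miR-21b and miR-21c was not tested.

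**Figure D4:**
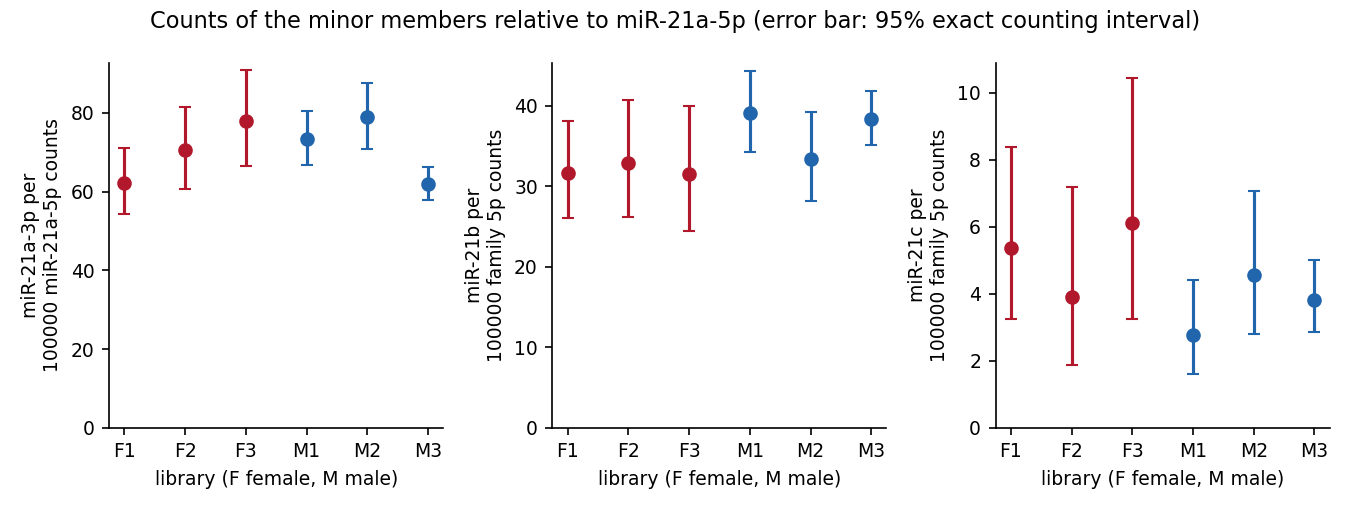
Counts of miR-21a-3p per 100000 counts of miR-21a-5p, and of miR-21b and miR-21c per 100000 counts of the 3 near-identical members, in each female (F) and male (M) library; error bars are 95% exact binomial intervals and cover counting error only. miR-21b stays between 31.5 and 39.1 in all 6 libraries, and its female shares lie below its male shares without overlap.

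The miRNAs whose pattern over the 6 libraries was most like that of miR-21a-5p included 2 other members. Likeness was the root mean square difference of log2 CPM, each miRNA centred on its own mean, among 242 others with a mean of at least 10 CPM. The nearest was miR-339-5p (0.079), followed by miR-21b (0.122), miR-21a-3p (0.139), miR-195a-5p (0.152) and miR-203-3p (0.162). miR-339-5p was lower in females too, at 300.3 ± 20.4 against 479.6 ± 36.2 CPM (SD, n = 3 each; log2 fold change -0.68, adjusted p = 0.0166, edgeR). Its adjusted p was 0.0545 without female replicate 2 and 0.0552 without female replicate 3 (edgeR). The log2 fold change of miR-195a-5p was -0.36 (adjusted p = 0.196) and that of miR-203-3p -0.34 (adjusted p = 0.106), and neither passed. These 6 points hold 2 sexes, so any miRNA that differs by sex in a similar degree comes out as alike.

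Of 41 other tested miRNAs in 4 lists studied with miR-21, 3 passed (7.32%), a share near the 6.76% of all tested miRNAs, so the number of calls says nothing particular about these lists. The 3 were higher in females. Of 11 tested injury and inflammation miRNAs, 2 were higher in females and 0 lower (3.24% of all tested were called higher), with a median log2 fold change of 0.13. The higher ones were miR-146b-5p (0.73, adjusted p = 0.0454), which is induced in inflammation, and the myeloid miR-223-3p (0.62, adjusted p = 0.0467; edgeR for both). Neither passed in limma-voom, with upper-quartile factors, or without male replicate 3, female replicate 2 or female replicate 3, and miR-146b-5p lost the call whichever library was left out (adjusted p from 0.0538 to 0.146, edgeR). miR-125b-5p, a member named after its values were seen, stood at -0.42 (adjusted p = 0.0809); it passed as lower in females with upper-quartile factors (-0.51), with no filter (-0.40) and without male replicate 3 (-0.53). Of 18 tested fibrosis-linked miRNAs, 1 was higher, the p53-induced miR-34a-5p (1.78, adjusted p = 0.00016, edgeR), and 0 lower, with a median of -0.08. Of 16 tested growth-linked miRNAs studied in tumours, 0 passed either way (median -0.08); miR-93-5p stood at 0.16 and miR-25-3p at -0.08. Of 4 tested miRNAs whose processing is known to respond to SMAD proteins, 0 passed (median -0.10), with miR-199a-3p at -0.38 (adjusted p = 0.0998, edgeR) and miR-199a-5p at -0.14. miR-155-5p, miR-221-3p, miR-222-3p, miR-199a-5p and miR-199a-3p stand in more than 1 of these lists. With no TMM factor the medians of the last 3 lists turned positive, as a change of scaling moved the median of all tested miRNAs from -0.01 to 0.13.

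Since miR-21 is found in hepatocytes, leukocytes and stromal cells alike, markers of each were set beside it. The 8 stellate and other stromal markers, miR-143-3p and miR-199a-3p among them, all had negative log2 fold changes (median -0.22), and 0 of the 8 passed. Several marker sets hold both arms of a hairpin, here those of miR-145a, miR-199a and miR-214, so the markers are not independent measurements. After TMM adjustment, the summed level of these 8 was 10261 to 13152 CPM in females and 14038 to 14763 CPM in males. It was lower in each female library than in each male library. Most of this sum is miR-143-3p, at 8081 ± 1149 against 9373 ± 455 CPM (SD, n = 3 each; adjusted p = 0.323, edgeR). With no TMM factor 7 of the 8 were negative (median -0.09), and the summed levels of the sexes overlapped. The 7 leukocyte markers were all positive (median 0.25; 6 of 7 with upper-quartile factors), with miR-223-3p past the threshold, and summed to 6565 to 6750 CPM in females and 4901 to 6455 CPM in males. The 7 hepatocyte markers had a median of 0.17, with both arms of miR-802 higher. Their summed level, which is mostly miR-122-5p, was however lower in each female library after TMM adjustment. It was 396004 to 399104 CPM in females and 421241 to 466189 CPM in males. With no TMM factor these sums overlapped between the sexes. The 2 endothelial markers had a median of -0.02, the 6 biliary and epithelial markers -0.22 and the 4 erythroid markers 0.18, with 0 past the threshold. With no TMM factor the endothelial median was 0.11. No marker was absent from the table; 2 of the 4 muscle and 1 of the 3 islet markers had enough counts to be tested. Both muscle markers were positive and did not pass (median 0.29). The islet marker miR-375-3p passed as higher in females, at 3.47 ± 1.19 against 1.31 ± 0.123 CPM (SD, n = 3 each; log2 fold change 1.43, adjusted p = 0.0438, edgeR). That call was lost whichever library was left out (adjusted p from 0.0557 to 0.22, edgeR). The part of any cell type in the level of miR-21a-5p was not tested.

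The difference in miR-21a-5p stayed negative and past the threshold in each of 17 other fits. Its log2 fold change lay between -0.70 with upper-quartile factors and -0.46 with no TMM factor. Without any 1 library it lay between -0.69 and -0.54, with adjusted p from 0.000518 to 0.0133 (edgeR). Leaving miR-122-5p out of the table, which changes the total that shares refer to, gave -0.63, and so did a scaling made without the family. Summing miR-21a-5p, miR-21b and miR-21c into a single value gave -0.60 (adjusted p = 0.00168, edgeR).

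**Figure D5:**
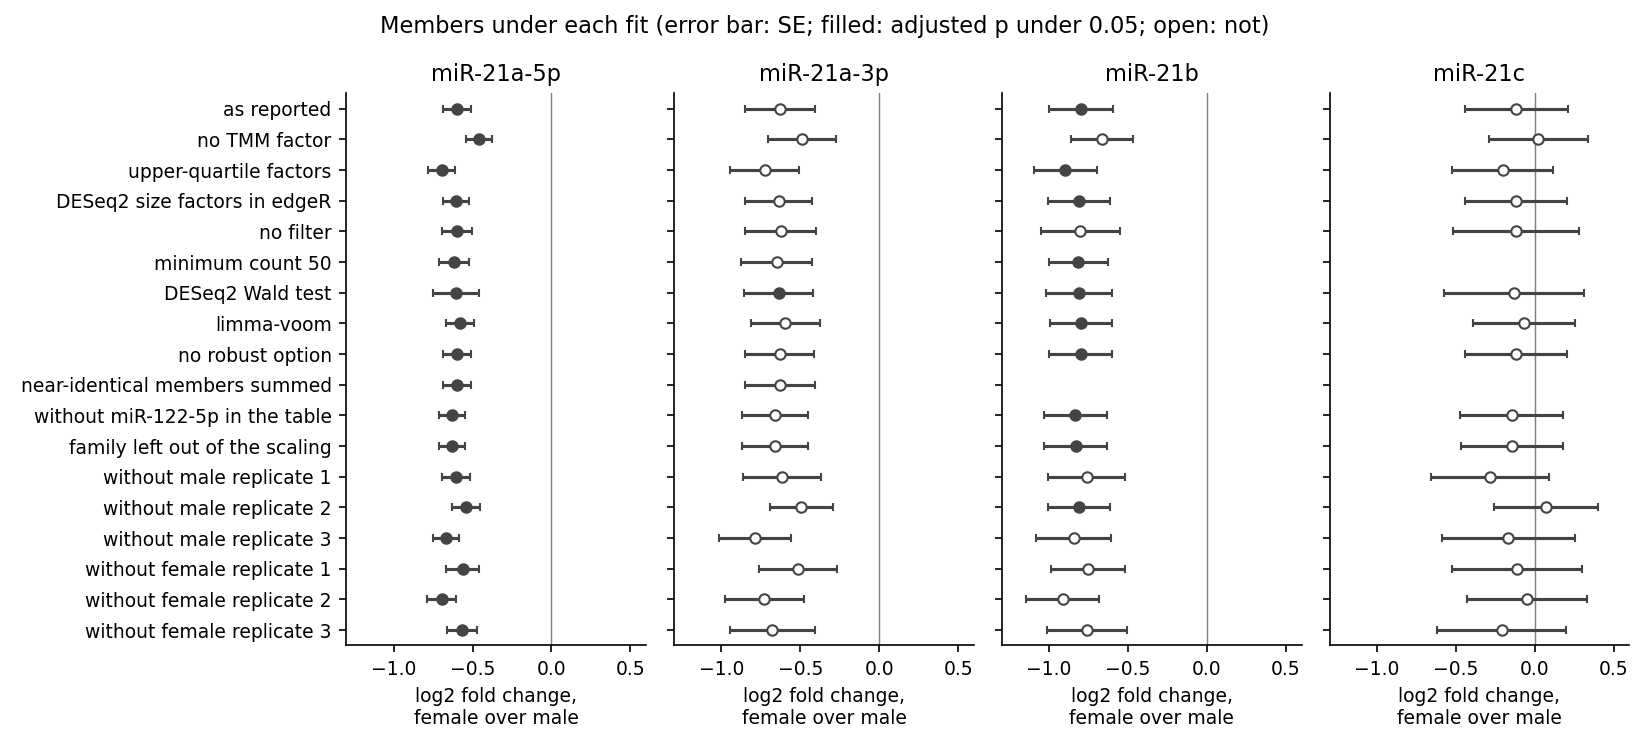
Log2 fold change, female over male, of each member under the reported fit and each alternative (rows), with the SE as error bar; filled points have an adjusted p under 0.05. All 18 points of miR-21a-5p are filled, those of miR-21b are filled in 10 of 17 fits, and miR-21c crosses 0 with no TMM factor and without male replicate 2.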

How the data were processed

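The authors deposited a table of estimated counts of reads per mature miRNA, not normalised. The submitters' processing notes name Partek, Bowtie and the mm10 build but no version or setting. The Qiagen miRNA library kit is named per the labels' protocols. Of 2045 rows, 138 exact repeats were dropped. Of the values, 98.9% were whole and the rest were rounded; the largest were written with 3 digits, an error of 0.368% for miR-21a-5p in male replicate 3. A row's stop lies 1 base beyond the miRNA.

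Sexes were compared with edgeR 4.0.16 (R 4.3.3): quasi-likelihood test, robust, TMM, filterByExpr (minimum count 10), Benjamini-Hochberg over 370 miRNAs, threshold 0.05. SE is the log2 fold change over the root of F. Arm ratios were tested with limma 3.58.1 on log2 ratios (0.5 added). DESeq2 1.42.0, limma-voom, other scalings and filters, and leaving out each library were alternatives. The fits were tested on simulated data. Intervals are 95% and cover counting error only where counts are named. Replicates were numbered in accession order; p-values measure the spread between these animals. Members and lists were chosen with earlier results of these data known. Named beside the members were list members past the threshold, otherwise up to 2 of the most abundant; the 5 miRNAs most alike; neighbours in level and asymmetry; and miRNAs sharing a seed.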

Additional observations from a re-analysis of the deposited data

How the results depend on the processing

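The count of 25 called miRNAs became 13 with a minimum count of 50 and ranged from 9 to 32 without a library. For miR-21a-3p, the DESeq2 Wald test gave -0.64 and passed; the fold changes without a library ran from -0.79 to -0.49. For miR-21b, no TMM factor gave -0.66 and no filter -0.80, neither past the threshold; without a library it ran from -0.91 to -0.75, and 5 of these 6 fits lost the call. miR-21c turned to 0.024 with no TMM factor, and ran from -0.28 to 0.069 without a library. The arm difference ran from -0.12 to 0.064 without a library, and the number of hairpins called from 0 to 2. The miR-21b share difference ran from -6.70 to -3.86 per 100000 and that of miR-21c from 0.927 to 2.02 without a library. Injury and inflammation miRNAs called were 1 with upper-quartile factors (miR-125b-5p, lower in females), 1 with a minimum count of 50 (miR-146b-5p), 1 with miR-122-5p left out or the family left out of the scaling (miR-223-3p), 0 in limma-voom, and 0 to 1 without a library. Fibrosis-linked miRNAs called were 2 with upper-quartile factors and 1 to 2 without a library, and SMAD-responsive miRNAs 1 with upper-quartile factors; miR-199a-3p, lower in females, was the one added to both lists by these factors. With no filter, 1588 miRNAs were tested; the other causes were not tested. No fit with a minimum count of 50 exists for miR-21c, nor a summed fit for miR-21b and miR-21c. No paired analysis was possible because the labels give no replicate numbers shared by the sexes. The depth limits miR-21c, with 10 to 52 counts per library.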

Other observations

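Among the 52 miRNAs with a mean level of at least 1000 CPM, a limit chosen after seeing the data, only miR-21a-5p passed the threshold in the reported fit. The other 51 had log2 fold changes from -0.91 to 0.24. The lowest of these, miR-369-3p, had a larger fall in females than miR-21a-5p but also a larger error (SE 0.33, adjusted p = 0.135, edgeR). Its level was 2354 CPM in male replicate 2 and 696 to 882 CPM in the other libraries. Without male replicate 2, the log2 fold change of miR-21a-5p was -0.54 (adjusted p = 0.00272, edgeR).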
